A study of Homo sapiens with 12 samples.

Results

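The genes described here are 9 that tumour cells use to restrain immune cells, read across 4 groups of hypoxic glioma cells that differed in the hypoxia-inducible factors they carried. The members are CD274, PDCD1LG2, CD276, CD47, NT5E, ENTPD1, ADORA2B, LGALS1 and LGALS3, and they were found by matching their symbols to the Ensembl identifiers of the expression table, which gave 9 of 20263 genes. The samples were U87 cells (U-87 MG, a widely used line grown from a human glioblastoma). The control group carried an empty vector (vector), HIF1α-ko and HIF2α-ko each lacked the factor they are named for, and HIF1α/2α-ko lacked both, with 3 libraries in each of the 4 groups. All 12 libraries came from cells kept at 1% O2 for 72 h according to the record of the sequencing, so no group shows the genes at normal oxygen and the vector group is the reference throughout. How the knockouts were made, and whether each line was a clone or a pool, is not given in the sources used here. No source says that the libraries of a group came from separate cultures, so p-values measure the spread between these libraries, which may be technical.

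As background, T cells carry the inhibitory receptor PD-1, whose ligands are PD-L1 (CD274) and PD-L2 (PDCD1LG2). CD276 (B7-H3) is a related B7 family protein that is abundant on gliomas, and CD47 binds SIRPα on macrophages and holds back phagocytosis. In the adenosine route, CD39 (ENTPD1) removes phosphates from extracellular ATP, CD73 (NT5E) turns AMP into adenosine, and the A2B receptor (ADORA2B) senses it. Galectin-1 (LGALS1) and galectin-3 (LGALS3) are secreted lectins that bind glycans on T cells and can dampen them. HIF1α and HIF2α (gene EPAS1) pair with ARNT and bind short DNA elements whose core letters are ACGTG or GCGTG, and several of these 9 genes have been described as hypoxia-responsive in other cells.

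The promoters of the members were read beside these letters. The windows were the 250 bases before each RefSeq transcription start (GRCh38.p14), and 7 members were in the table. LGALS1 and PDCD1LG2 are named only. The sequences shown are those of CD47, which held the most matches, of CD274, which held none, and of ADORA2B, the member with the steadiest fall in HIF1α/2α-ko. Each is printed 5′ to 3′ on the strand of its gene, without bases of an exon, and capitals mark ACGTG or GCGTG. The CD47 stretch is chr3:108091032-108091281 on the minus strand, inside the span that GENCODE 29 gives the gene but outside its exons. The CD274 stretch is chr9:5450292-5450502 and the ADORA2B stretch chr17:15944880-15944916, both on the plus strand and just before the gene.
CD47: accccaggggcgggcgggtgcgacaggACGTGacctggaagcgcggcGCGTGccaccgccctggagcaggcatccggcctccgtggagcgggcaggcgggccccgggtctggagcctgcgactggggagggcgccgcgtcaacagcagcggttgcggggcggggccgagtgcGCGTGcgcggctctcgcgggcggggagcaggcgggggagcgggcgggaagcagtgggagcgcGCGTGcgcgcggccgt
CD274: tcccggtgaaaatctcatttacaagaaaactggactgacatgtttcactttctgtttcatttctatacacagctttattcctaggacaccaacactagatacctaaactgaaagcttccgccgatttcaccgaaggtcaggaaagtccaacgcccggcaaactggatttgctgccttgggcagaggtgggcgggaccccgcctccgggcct
ADORA2B: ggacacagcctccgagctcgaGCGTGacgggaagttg
Of all 35116 promoter windows of this length, 18.5% held ACGTG and 32.2% held GCGTG on either strand, and 43.2% held at least 1 of them. The CD47 window held 4 matches, 1 ACGTG and 3 GCGTG, and the ADORA2B window held 1 GCGTG. The whole windows of CD274, LGALS3 and NT5E held 0. Of 2 windows of CD276, 1 held a single ACGTG on the other strand, and of 5 windows of ENTPD1, 1 held 2 GCGTG matches. The windows of ADORA2B, CD47, LGALS3 and NT5E were rich in G and C, at 75.2%, 79.6%, 78.8% and 75.2%, against a median of 58.0% over all windows, while that of CD274 was at 54.8%. A match is a description of letters, not of a bound site, and no binding was measured here.

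The targeted genes were read in each group first. HIF1A ranged from 110.0 to 151 TPM (a transcript abundance that accounts for gene length and is scaled to the same total in each library) in vector and from 38.6 to 57.3 in HIF1α-ko. EPAS1 ranged from 286 to 346 TPM in vector and from 87.6 to 118 in HIF2α-ko. In HIF1α/2α-ko, EPAS1 was at 101 to 130 TPM and HIF1A at 67.8 to 89.2, so the HIF1A level in the group labelled as lacking both factors lay above that of HIF1α-ko. Transcript levels do not show whether a protein is made. Of 8 reference HIF targets, 4 fell in HIF1α-ko, 0 passed the test in HIF2α-ko (limma, 2 at an unadjusted p under 0.05) and 7 fell in HIF1α/2α-ko. Of all tested genes 8.77%, 5.89% and 14.8% were called lower in these 3 groups. Markers of the line (VIM, NES, CD44 and TNC) summed to 13513 to 16396 TPM in vector, 10726 to 12625 in HIF1α-ko, 8020 to 10092 in HIF2α-ko and 6917 to 10510 in the knockout of both, so that all vector libraries lay highest, with NES at 2.64 to 6.17, and CDKN2A, which this line is known to lack, was listed at 0 in all 12 libraries. Of 7 immune cell markers CD68 was the exception, at 587 to 1633 TPM and lowest in HIF1α/2α-ko, where its 3 libraries reached at most 817.5. The other 6 summed to at most 1.00 TPM. The summed endothelial markers stayed at or under 7.08 TPM, with at most 1.89 in HIF1α/2α-ko, and the neuron markers at or under 4.70, at 3.68 or more in vector and HIF2α-ko and 2.97 or less in the others. The part of these marker levels in the results below was not tested. In bulk RNA, fewer cells that express a gene and less RNA of it per cell cannot be told apart.

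Of the vector libraries, replicate 1 stood apart. Its Pearson's r over all tested genes was 0.968 and 0.966 with the others of its group, which reached 0.989 between themselves. In the knockout groups too, replicate 1 was the least alike, most in HIF1α/2α-ko, with 0.975 and 0.977 against 0.992 between the others, and with 0.982 to 0.985 against 0.991 and 0.992 in the other 2. Each result against vector that rests on it is therefore given with and without it. TPM keeps no sequencing depth, so the depth is unknown and no counting interval can be given for any value.

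The levels of the members lay far apart. Over the 12 libraries LGALS1 averaged 9018 TPM, the rank 7 gene of 20263. LGALS3 averaged 824 TPM and NT5E 374. CD276 at 75.4 TPM and ADORA2B at 64.2 stood in the middle, followed by CD47 at 27.8. PDCD1LG2 at 5.87 TPM and CD274 at 4.81 were low, and ENTPD1 at 0.80 was the lowest. The ranges over the libraries overlapped for the neighbours LGALS3 and NT5E, CD276 and ADORA2B, and PDCD1LG2 and CD274. At the border between ADORA2B and CD47, the lowest ADORA2B library (46.4 TPM) lay just above the highest CD47 library (44.1). The U87 cells thus carried transcripts of both secreted lectins and of CD73 at far higher levels than those of either PD-1 ligand, and CD39 was close to the bottom of the scale.

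**Figure D1:**
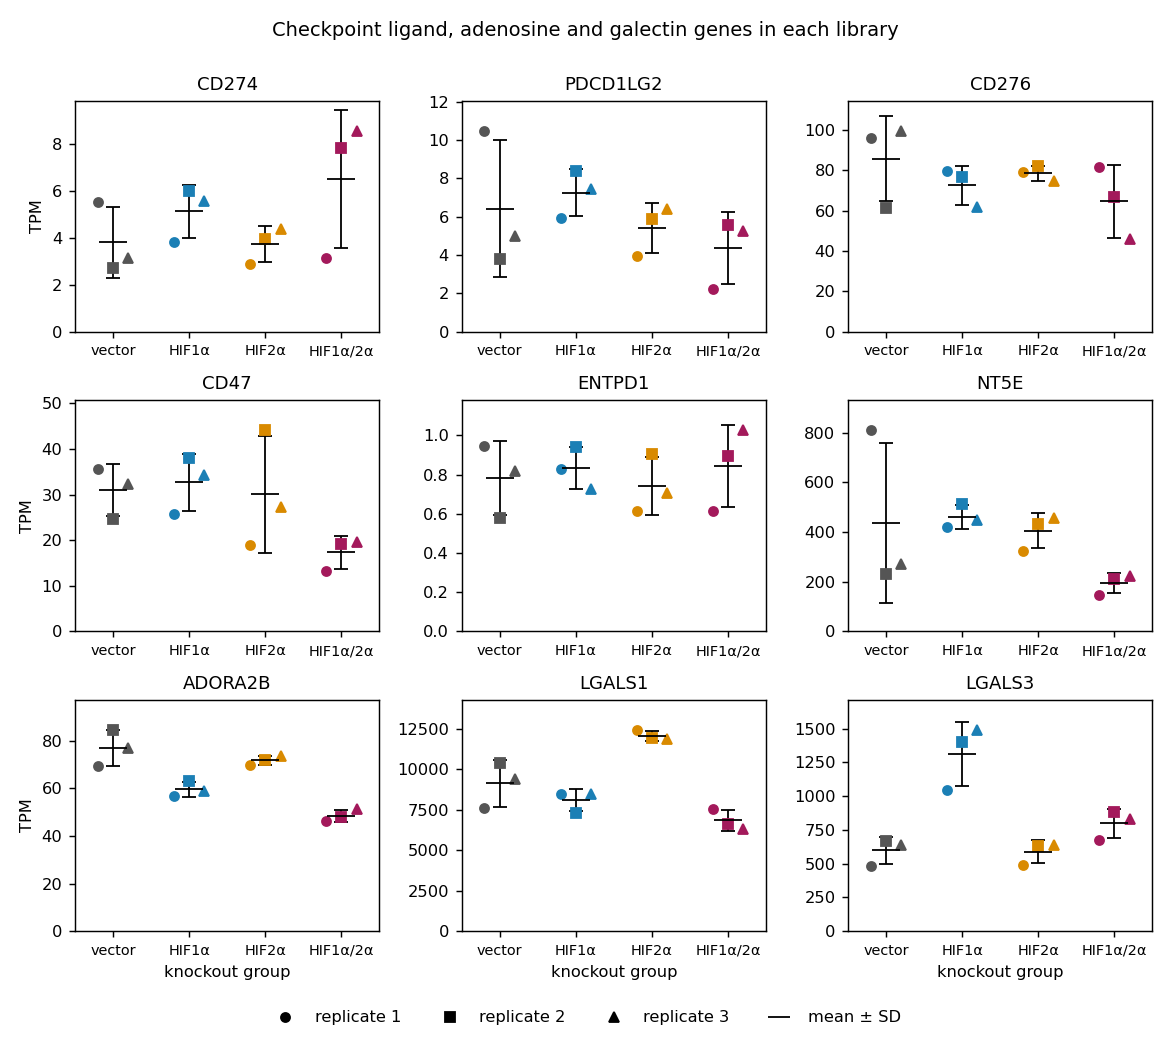
TPM of each of the 9 genes in the 12 libraries, 1 panel per gene with its own axis from 0. Points are libraries and bars are group means; the x axis gives the knockout group. ADORA2B, CD47 and NT5E have their lowest group mean in HIF1α/2α-ko, LGALS3 its highest in HIF1α-ko and LGALS1 its highest in HIF2α-ko.

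Which of these genes depended on HIF1α, on HIF2α or on both was read from the fit of log2(TPM + 1) in all tested genes, with a Benjamini-Hochberg adjusted p under 0.05 as the call. Of the 9 members 8 passed the filter, which asked for 1 TPM or more in 3 libraries or more, and ENTPD1 did not. Against vector, loss of HIF1α moved 2 of the 8: LGALS3 rose and ADORA2B fell. Loss of HIF2α moved 0 (limma, with 1 at an unadjusted p under 0.05). Loss of both lowered 4, ADORA2B, LGALS1, CD47 and NT5E, and raised 0. With quantile normalization that last count was 5 lower and 1 higher, beside 2848 and 2829 of the 11731 tested genes. Without replicate 1 of every group it was 2 lower (ADORA2B and LGALS1) and 2 higher (CD274 and LGALS3), beside 2234 and 5316 genes. With no filter and more genes tested, only the fall of ADORA2B was called, beside 1859 genes lower and 3792 higher.

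These counts stand beside a background in which many genes moved. In HIF1α-ko 17.3% of the 11731 tested genes were called higher and 8.77% lower, a split of 2031 against 1029 that became 1278 against 1527 with median ratio scaling. In HIF2α-ko 5.07% were higher and 5.89% lower, or 595 against 691, which became 753 against 579. In HIF1α/2α-ko 31.8% were higher and 14.8% lower, or 3732 against 1741, which became 2854 against 2600. Thus 4 of 8 members were called lower where the background was 14.8%, and 0 of 8 higher where it was 31.8%. The median log2 fold change of the 8 was 0.16, -0.06 and -0.42 in the 3 groups, beside 0.18, -0.04 and 0.21 over all tested genes. Median ratio scaling brought the medians of all genes to 0.01, -0.005 and 0.01, so that each change in HIF1α-ko and HIF1α/2α-ko lay lower by about the size of the shift. Under it the members called were again 2, 0 and 4.

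**Figure D2:**
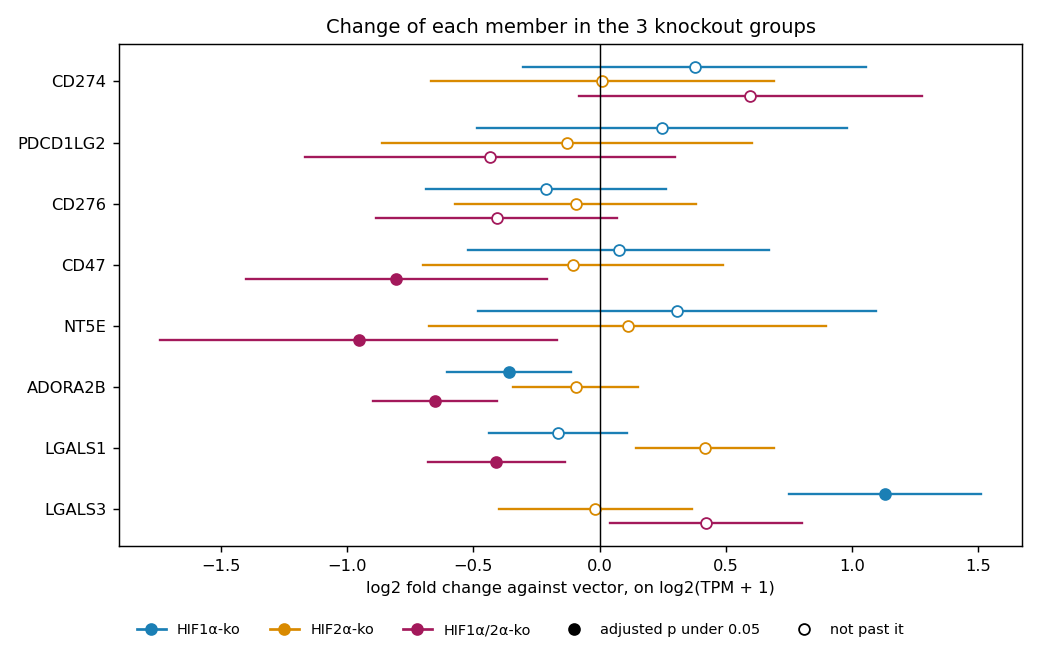
Log2 fold change of the 8 tested genes in each knockout group against vector, with 95% intervals from the fit; the x axis is on the log2(TPM + 1) scale and filled points have an adjusted p under 0.05. The filled points are LGALS3 and ADORA2B in HIF1α-ko and CD47, NT5E, ADORA2B and LGALS1 in HIF1α/2α-ko, and none is filled in HIF2α-ko.

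Of the PD-1 ligands, CD274 (ENSG00000120217; chr9:5450503-5470566, plus strand, positions here and below from GENCODE 29 on GRCh38) was low in all groups. It was at 5.55, 2.74 and 3.16 TPM in vector replicates 1, 2 and 3, at 3.85, 5.99 and 5.58 in HIF1α-ko, at 2.90, 3.96 and 4.39 in HIF2α-ko and at 3.16, 7.83 and 8.58 in HIF1α/2α-ko. The highest values were replicates 2 and 3 of HIF1α/2α-ko, but replicate 1 of that group matched a vector library and the ranges overlapped. The group means were 3.82 ± 1.52 (SD, n = 3), 5.14 ± 1.13, 3.75 ± 0.770 and 6.53 ± 2.93 TPM. In HIF1α/2α-ko the log2 fold change was 0.60 (SE 0.31, adjusted p = 0.137), which did not pass. It was 0.84 without vector replicate 1 (adjusted p = 0.0526), and it passed without HIF1α/2α-ko replicate 1, at 0.98 (adjusted p = 0.00828). When replicate 1 of every group was left out, PD-L1 mRNA was higher in all 3 knockout groups, by 0.78 in HIF1α-ko (adjusted p = 0.00130), by 0.39 in HIF2α-ko (adjusted p = 0.0362) and by 1.22 in the knockout of both (adjusted p = 9.14e-05), with 2 libraries in each group. The call for CD274 therefore turned on the replicate 1 libraries.

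PDCD1LG2 (ENSG00000197646; chr9:5510570-5571254, plus strand) lies 40004 bp beyond CD274. It was at 10.5, 3.78 and 5.0 TPM in vector, at 5.95, 8.37 and 7.47 in HIF1α-ko, at 3.93, 5.88 and 6.43 in HIF2α-ko and at 2.22, 5.60 and 5.27 in HIF1α/2α-ko. The highest of the 12 values was vector replicate 1 and the lowest was replicate 1 of HIF1α/2α-ko, with overlap between all groups and vector. The fold changes did not pass in any group, at 0.25, -0.13 and -0.44 (adjusted p = 0.611, 0.853 and 0.310). Without vector replicate 1 the value in HIF2α-ko turned to 0.24 and that in HIF1α/2α-ko shrank to -0.07. Without replicate 1 of every group, PDCD1LG2 was called higher in HIF1α-ko (0.73, adjusted p = 0.00377) and stood at 0.26 in HIF1α/2α-ko (adjusted p = 0.133). With quantile normalization it was called lower in HIF1α/2α-ko (-0.72, adjusted p = 0.0389). The neighbouring PD-1 ligand genes were thus at like levels. In HIF1α/2α-ko their estimates from all 12 libraries lay on opposite sides of 0, neither past the threshold, but not without replicate 1 of every group.

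CD276 (ENSG00000103855; chr15:73683966-73714518, plus strand) was the most abundant B7 family member read here. It was at 96.1, 61.6 and 99.7 TPM in vector, at 79.6, 76.9 and 61.7 in HIF1α-ko, at 79.1, 82.0 and 74.5 in HIF2α-ko and at 81.5, 66.9 and 45.8 in HIF1α/2α-ko. The group means fell from 85.8 ± 21.0 in vector to 64.7 ± 17.9 in HIF1α/2α-ko (SD, n = 3), but the libraries overlapped. The log2 fold change there was -0.41 (SE 0.22, adjusted p = 0.146), and it passed without vector replicate 2 (-0.63, adjusted p = 0.0330) or without HIF1α/2α-ko replicate 1 (-0.59, adjusted p = 0.0446). In HIF1α-ko and HIF2α-ko the changes of -0.21 and -0.10 had adjusted p = 0.494 and 0.830.

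CD47 (ENSG00000196776; chr3:108043094-108091862, minus strand), the signal against phagocytosis, was lower when both factors were lost and not detectably changed when 1 was. It was at 35.7, 24.7 and 32.4 TPM in vector, at 25.8, 38.0 and 34.4 in HIF1α-ko, at 18.9, 44.1 and 27.3 in HIF2α-ko and at 13.2, 19.2 and 19.6 in HIF1α/2α-ko. All 3 HIF1α/2α-ko libraries lay below all 3 of vector and of HIF1α-ko, and the lowest HIF2α-ko library fell among them. The mean went from 31.0 ± 5.67 to 17.3 ± 3.57 TPM (SD, n = 3), a log2 fold change of -0.81 (SE 0.27, adjusted p = 0.0289), or 0.572 times the vector level. In HIF1α-ko it was 0.08 (95% interval -0.52 to 0.67) and in HIF2α-ko -0.11 (-0.70 to 0.49). The call in HIF1α/2α-ko was lost without vector replicate 1 (-0.70, adjusted p = 0.0850), vector replicate 3 (-0.76, adjusted p = 0.0757) or HIF1α/2α-ko replicate 1 (-0.63, adjusted p = 0.0960), with the direction kept.

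Among the adenosine genes, NT5E (ENSG00000135318; chr6:85449584-85495791, plus strand), which encodes the enzyme that releases adenosine, showed the widest spread. It was at 809, 231 and 273 TPM in vector, at 421, 513 and 447 in HIF1α-ko, at 325, 433 and 457 in HIF2α-ko and at 148, 210.0 and 224 in HIF1α/2α-ko. Vector replicate 1 held 809 TPM against 231 and 273 in the others of its group, and the HIF1α/2α-ko libraries lay below every other library. Against vector the log2 fold change in HIF1α/2α-ko was -0.95 (SE 0.36, adjusted p = 0.0465). This call was lost without 10 of the 12 libraries in turn (adjusted p between 0.0519 and 0.136), the exceptions being vector replicates 2 and 3. It was also lost with no filter (adjusted p = 0.0897), only the groups compared (adjusted p = 0.108) and no mean-variance trend (adjusted p = 0.0532). Without vector replicate 1 it was -0.39 (adjusted p = 0.118), and NT5E was then higher in HIF1α-ko by 0.87 (adjusted p = 0.00610) and in HIF2α-ko by 0.67 (adjusted p = 0.0319). With that library in, the same changes were 0.31 (adjusted p = 0.556) and 0.11 (adjusted p = 0.884). Which groups were called against vector thus changed with vector replicate 1.

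ENTPD1 (ENSG00000138185; chr10:95711779-95869695, plus strand), the enzyme upstream of CD73, was the least abundant member in every library. It was at 0.947, 0.578 and 0.820 TPM in vector, at 0.828, 0.942 and 0.727 in HIF1α-ko, at 0.615, 0.907 and 0.706 in HIF2α-ko and at 0.613, 0.894 and 1.03 in HIF1α/2α-ko. The groups overlapped throughout, 1 library passed 1 TPM, and the gene did not pass the filter. Fitted without a filter, its changes against vector were 0.04 in HIF1α-ko, -0.03 in HIF2α-ko and 0.05 with both factors lost (adjusted p = 0.833, 0.934 and 0.793).

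ADORA2B (ENSG00000170425; chr17:15944917-15975746, plus strand), the low-affinity adenosine receptor, gave the most even pattern of the members. It was at 69.4, 84.6 and 76.9 TPM in vector, at 56.8, 63.1 and 59.1 in HIF1α-ko, at 69.7, 72.0 and 73.5 in HIF2α-ko and at 46.4, 47.8 and 51.3 in HIF1α/2α-ko. The HIF1α-ko libraries lay below all vector libraries, the HIF1α/2α-ko libraries lay below those of HIF1α-ko, and HIF2α-ko overlapped vector. The mean fell from 76.9 ± 7.61 to 59.7 ± 3.15 and 48.5 ± 2.50 TPM (SD, n = 3), with 71.8 ± 1.93 in HIF2α-ko. Loss of both factors gave -0.65 (SE 0.11, adjusted p = 0.000583), a fold of 0.637, and the call was kept without each of the 12 libraries in turn. Loss of HIF1α gave -0.36 (SE 0.11, adjusted p = 0.0365). That call was lost without vector replicate 2 or 3, any HIF1α-ko library, or replicate 2 or 3 of either of the other groups, with values of -0.40 to -0.29 and adjusted p between 0.0502 and 0.129, and it was 0.111 with the 2 groups alone. In HIF2α-ko the change was -0.09 (95% interval -0.34 to 0.15, adjusted p = 0.646).

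LGALS1 (ENSG00000100097; chr22:37675608-37679806, plus strand) fell in HIF1α/2α-ko, while its higher level in HIF2α-ko lay just short of the threshold. It was at 7571, 10405 and 9361 TPM in vector, at 8439, 7301 and 8480.2 in HIF1α-ko, at 12415, 11915 and 11848 in HIF2α-ko and at 7561, 6639 and 6281 in HIF1α/2α-ko. All HIF2α-ko libraries stood above every other library, and the HIF1α/2α-ko libraries all lay below vector, the closest pair at 7561 and 7571. The means were 9112 ± 1433 TPM in vector, 8073 ± 669 after loss of HIF1α, 12059 ± 310.2 after loss of HIF2α and 6827 ± 660.1 after loss of both (SD, n = 3). The change in HIF2α-ko was 0.42 (SE 0.13), with an adjusted p = 0.0522 that did not pass. It passed without vector replicate 2 (0.52, adjusted p = 0.0357) or HIF1α/2α-ko replicate 1 (0.42, adjusted p = 0.0414), and was 0.29 without vector replicate 1 (adjusted p = 0.0764). The fall in HIF1α/2α-ko was -0.41 (SE 0.13, adjusted p = 0.0179). It was lost without vector replicate 2 (-0.31, adjusted p = 0.0744), vector replicate 3 (-0.38, adjusted p = 0.0559), HIF1α/2α-ko replicate 2 (-0.39, adjusted p = 0.0567) or replicate 3 (-0.35, adjusted p = 0.0771), and under quantile normalization, where it was -0.11 (adjusted p = 0.426). It was also lost with no filter (adjusted p = 0.0661) and with only the groups compared (adjusted p = 0.0700). Without vector replicate 1 it was -0.54 (adjusted p = 0.00179).

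LGALS3 (ENSG00000131981; chr14:55124110-55145413, plus strand), the other lectin, was the member that rose. It was at 485, 667 and 641 TPM in vector, at 1042, 1402 and 1490.4 in HIF1α-ko, at 492, 634 and 640.4 in HIF2α-ko and at 677, 885 and 832 in HIF1α/2α-ko. HIF1α-ko stood above all other libraries, HIF2α-ko overlapped vector, and HIF1α/2α-ko lay between, just above the highest vector library. The mean rose from 597 ± 98.6 to 1311 ± 237 TPM in HIF1α-ko (SD, n = 3), a log2 fold change of 1.13 (SE 0.18, adjusted p = 0.00123), or 2.19-fold, kept without each library in turn. In HIF2α-ko it was -0.02 (95% interval -0.40 to 0.36). In HIF1α/2α-ko it was 0.42 (SE 0.18, adjusted p = 0.0666), which passed without HIF1α-ko replicate 1 (0.42, adjusted p = 0.0454) or HIF1α/2α-ko replicate 1 (0.54, adjusted p = 0.0345). It was smaller without vector replicate 1 (0.28, adjusted p = 0.210) and with median ratio scaling (0.19, adjusted p = 0.366). In HIF1α-ko it was 0.99 without vector replicate 1 (adjusted p = 0.00167).

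**Figure D3:**
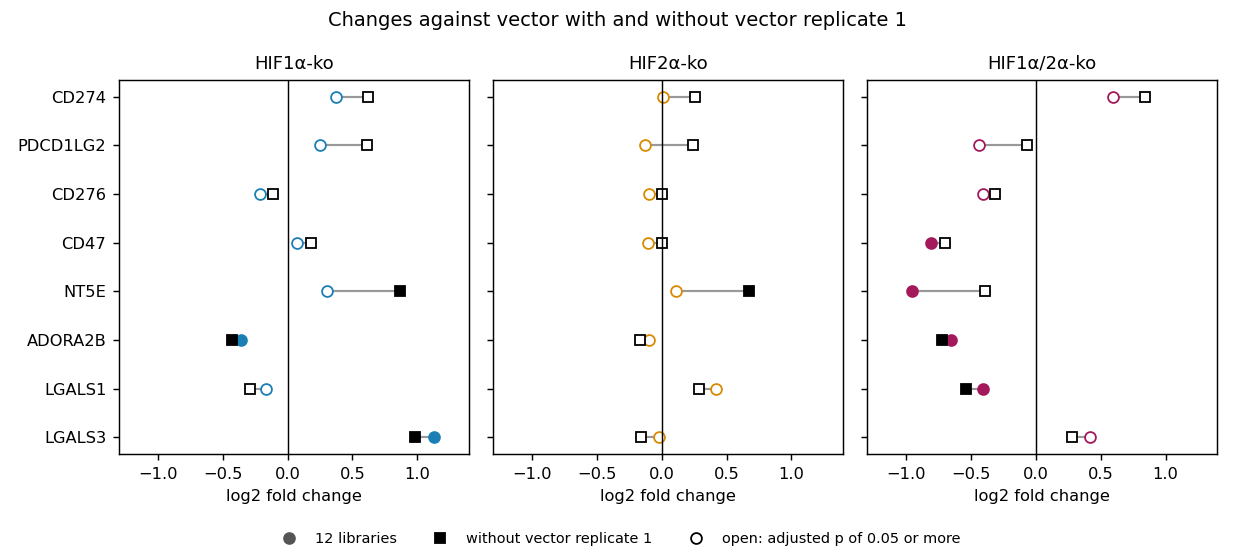
Log2 fold change of the 8 tested genes against vector with all 12 libraries (circles) and without vector replicate 1 (squares), 1 panel per knockout group; open symbols have an adjusted p of 0.05 or more. NT5E moved the most, from 0.31 to 0.87 in HIF1α-ko, from 0.11 to 0.67 in HIF2α-ko and from -0.95 to -0.39 in HIF1α/2α-ko, while ADORA2B stayed filled in HIF1α-ko and HIF1α/2α-ko.

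The knockout groups were also compared with each other, in the same fit, so that the vector libraries enter the estimate of spread but not the differences. Against HIF1α-ko, loss of both factors lowered NT5E, LGALS3 and CD47 and raised 0 of 8, beside 10.6% of all tested genes lower and 17.7% higher (1246 against 2076, or 1826 against 1822 with quantile normalization). Against HIF2α-ko it lowered NT5E, ADORA2B and LGALS1 and raised 0, beside 12.9% lower and 33.5% higher (1509 against 3933, or 2468 against 2748 with median ratio scaling). Same-numbered libraries of these 3 groups deviated alike from their group means (r of 0.196 to 0.508 in 9 pairs), so the fit with the replicate number as a block is given beside each count. The pairing was taken from these same values, and the 9 values of r are not independent. Deviations of 3 libraries from their mean sum to 0, so replicate 1 libraries that lie apart alike also raise r for replicates 2 and 3. Pairs with different numbers were not compared. The block on the 3 knockout groups also leaves the vector libraries out of the spread, so its values cannot be credited to the block alone. In that fit 6 of 8 members were lower than in HIF1α-ko, beside 19.5% of all genes lower. Against HIF2α-ko 4 were lower and 2 higher, beside 19.0% lower and 43.6% higher. Below, the block means this fit unless 4 groups are named.

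NT5E was the gene that separated the groups the most. Its HIF1α/2α-ko level differed by -1.26 on the log2 scale from that of HIF1α-ko (SE 0.36, adjusted p = 0.0210) and by -1.07 from that of HIF2α-ko (SE 0.36, adjusted p = 0.0296). The means were 194 ± 40.9 TPM against 460.2 ± 47.7 and 405 ± 69.9 (SD, n = 3), and no libraries overlapped. With the block on the 3 knockout groups the adjusted p against HIF1α-ko was 8.01e-05. It was 0.0332 with the block on 4 groups, and 0.00224 with only the groups compared and no block. Without the block the first call was lost without HIF1α-ko replicate 2 (-1.18, adjusted p = 0.0659), HIF1α-ko replicate 3 or HIF1α/2α-ko replicate 1 (adjusted p between 0.0525 and 0.0664 over the 3), and the second without replicate 2 or 3 of HIF2α-ko and without replicate 1 or 2 of HIF1α/2α-ko (adjusted p between 0.0524 and 0.0922).

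For CD47 the difference from HIF1α-ko was -0.88 (SE 0.27, adjusted p = 0.0301), with an adjusted p of 0.00226 with the block and 0.0209 with the block on 4 groups. Without the block it was lost without replicate 2 or 3 of HIF1α-ko and without replicate 1 or 2 of HIF1α/2α-ko (adjusted p between 0.0517 and 0.101). From HIF2α-ko it was -0.70 (adjusted p = 0.0528), which the block brought to 0.00427 and which passed without HIF2α-ko replicate 1 (-0.98, adjusted p = 0.0116). LGALS3 was lower than in HIF1α-ko, with a difference of -0.71 (SE 0.18, adjusted p = 0.0103), a call kept without each library in turn, and stood 0.44 above HIF2α-ko (adjusted p = 0.0577, and 0.000529 with the block). Leaving out vector replicate 1 (adjusted p = 0.0354), HIF1α-ko replicate 1 or HIF1α/2α-ko replicate 1 also brought that last value past the threshold (adjusted p between 0.0305 and 0.0393).

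ADORA2B and LGALS1 differed from HIF2α-ko, by -0.56 (SE 0.11, adjusted p = 0.00171) and -0.82 (SE 0.13, adjusted p = 0.000235), and both calls were kept without each library in turn. Their difference from HIF1α-ko was -0.29 for ADORA2B (adjusted p = 0.0715, and 0.0295 without vector replicate 1) and -0.24 for LGALS1 (adjusted p = 0.169). With the block on the 3 knockout groups these became calls, at 0.0125 and 0.0228. With the block on 4 groups they were 0.0361 and 0.169, so only ADORA2B passed there. The fit on 3 groups called PDCD1LG2 lower than in HIF1α-ko (-0.68, adjusted p = 0.151 without and 0.00776 with the block), all 3 libraries lying below those of HIF1α-ko. With the block on 4 groups PDCD1LG2 did not pass (adjusted p = 0.167). The fit on 3 groups also called CD274 higher than in HIF2α-ko (0.59, adjusted p = 0.144 without and 0.0181 with the block). Without the block CD274 passed there when HIF1α/2α-ko replicate 1 was left out (0.97, adjusted p = 0.00890).

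Whether the effect of losing both factors differed from the sum of the separate losses was tested as the interaction. It was called for 1 of 8 members, LGALS1, at -0.66 (SE 0.18, adjusted p = 0.0223), beside 7.35% of all tested genes lower and 13.2% higher (862 against 1552, or 1312 against 1350 with quantile normalization). LGALS1 changed by -0.17 in HIF1α-ko and by 0.42 in HIF2α-ko, and by -0.41 when both were lost. The call was lost without HIF1α-ko replicate 3 (adjusted p = 0.0557), HIF1α/2α-ko replicate 2 (adjusted p = 0.0509) or HIF1α/2α-ko replicate 3 (adjusted p = 0.0617), and with median ratio scaling (-0.73, adjusted p = 0.0781). LGALS3 had -0.69 (adjusted p = 0.0668), which passed without HIF1α-ko replicate 1 (adjusted p = 0.0321) or HIF2α-ko replicate 1 (adjusted p = 0.0478), with the replicate block on 4 groups (adjusted p = 0.00258) and with median ratio scaling (-0.77, adjusted p = 0.0393). NT5E had -1.37 (adjusted p = 0.0767) and passed without vector replicate 1, at -1.93 (adjusted p = 0.000451). The other 5 members did not pass, with CD47 at -0.78 (adjusted p = 0.174).

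The genes around these members in their pathways were read from lists. Of 28 other checkpoint and costimulatory ligands 17 were tested, and in HIF1α/2α-ko 7 rose and 3 fell, with a median log2 fold change of 0.14 (5 and 4 with median ratio scaling), so that the shares of 7 and 3 in 17 lay near the 31.8% and 14.8% of all tested genes. TNFSF9 (4-1BBL), which costimulates T cells through 4-1BB, went from 26.7 ± 12.6 TPM in vector to 55.4 ± 2.70 after loss of HIF1α, 65.6 ± 4.83 after loss of HIF2α and 62.0 ± 2.85 after loss of both (SD, n = 3). Its changes of 1.11, 1.35 and 1.27 (adjusted p = 0.00478, 0.00496 and 0.000673) were kept without each library in turn. CD24, a ligand of Siglec-10 on macrophages, fell by 1.32 in HIF1α/2α-ko (adjusted p = 0.000495), from 6.58 to 2.13 TPM. SIGLEC15 and BTN2A1 also fell, by 0.62 (adjusted p = 0.00225) and 0.70 (adjusted p = 0.00373). HLA-E, which engages NKG2A and was the most abundant of the list at 576 TPM, changed by 0.14 (adjusted p = 0.334), and passed without vector replicate 1 (0.25, adjusted p = 0.0408). In HIF1α-ko, HLA-E was called higher (0.41, adjusted p = 0.0207) and CD24 lower (-0.86, adjusted p = 0.0155). These were lost without 5 and 3 of the 12 libraries in turn. CD86, which shares its receptors with CD80, was listed at 0 in every library.

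Of 13 receptors, binding partners and related genes 5 were tested, and in HIF1α/2α-ko 3 fell and 0 rose, with a median of -0.65 (5 fell with median ratio scaling). The list was not limited to genes that bind a member. Of all tested genes 14.8% were called lower there and 31.8% higher, and with median ratio scaling 2600 of 11731 were lower. SIRPA, the receptor of CD47, averaged 50.6 ± 7.69 TPM in vector and 85.0 ± 5.74 without HIF1α, but 20.7 ± 0.623 without HIF2α and 19.6 ± 0.777 without both (SD, n = 3). It rose without HIF1α (0.75, adjusted p = 0.00221) and fell without HIF2α (-1.24, adjusted p = 0.000848) and without both (-1.32, adjusted p = 1.29e-05), each call kept without each library in turn. CD47 and SIRPA thus were both lower in HIF1α/2α-ko, whereas in HIF2α-ko the fall was called for SIRPA and not for CD47. THBS1, a secreted partner of CD47, fell by 0.74 (adjusted p = 0.000496) at a level of 1.59 TPM in vector and 0.548 in HIF1α/2α-ko. SIRPB1, which resembles SIRPA in sequence so that reads may be shared, averaged 1.17 TPM over the 12 libraries and fell by 0.65 (adjusted p = 0.0307). Its call was lost without vector replicate 1 (-0.36, adjusted p = 0.0902), HIF1α/2α-ko replicate 2 (adjusted p = 0.0866) or replicate 3 (adjusted p = 0.0669). ITGB3 had -0.28 (adjusted p = 0.220). PD-1 itself (PDCD1) reached at most 0.0807 TPM.

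Of 20 regulators of PD-L1 and CD47 19 were tested, and in HIF1α/2α-ko 9 rose and 1 fell, with a median of 0.58 (8 and 2 with median ratio scaling). Of all tested genes 31.8% were called higher there and 14.8% lower. The list was not sorted by whether a gene raises or lowers PD-L1 or CD47. IRF1, the interferon-induced factor that drives PD-L1 transcription, rose from 2.59 ± 1.57 TPM in vector to 8.38 ± 2.02 in HIF1α-ko and reached 42.1 ± 5.25 in HIF1α/2α-ko (SD, n = 3), by 1.45 (adjusted p = 0.00343) and 3.66 (adjusted p = 2.30e-06). CMTM4, a protein that shields PD-L1 from degradation, rose from 7.39 to 25.1 TPM, by 1.62 (adjusted p = 7.46e-05). USP22, a deubiquitinase that stabilises PD-L1, rose by 1.28 (adjusted p = 1.34e-05). EGFR, the receptor kinase whose signalling raises PD-L1, was the 1 that fell, from 101 ± 19.3 to 24.5 ± 1.65 TPM (-1.98, adjusted p = 9.24e-06), and it fell in HIF2α-ko as well (-1.06, adjusted p = 0.00575). These calls were kept without each library in turn. EGFR was also called lower in HIF1α-ko (-0.59, adjusted p = 0.0363), but leaving out any 1 of 4 libraries (vector replicates 2 and 3, HIF1α-ko replicates 1 and 3) ended this call (-0.59 to -0.45, adjusted p between 0.0892 and 0.140). IRF1 was also called higher in HIF2α-ko (0.93, adjusted p = 0.0496), which was lost without 9 of the 12 libraries in turn (0.73 to 1.04, adjusted p between 0.0636 and 0.182), the exceptions being replicate 1 of the groups other than HIF2α-ko. In HIF1α-ko, USP22 was also called higher (0.50, adjusted p = 0.0146) and RELA lower (-0.71, adjusted p = 0.0243). These were lost without 2 and 5 of the 12 libraries in turn. CDK4 and RELA, the most abundant of the list, had -0.20 (adjusted p = 0.289) and 0.03 (adjusted p = 0.930, and -0.20 with median ratio scaling) in HIF1α/2α-ko. In the same libraries CD274 itself did not pass the test, as given above.

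Of 33 other genes of adenosine and ATP handling 22 were tested. In HIF2α-ko 0 were called (limma, 7 at an unadjusted p under 0.05), beside 5.07% of all tested genes higher and 5.89% lower. In HIF1α/2α-ko 3 rose and 5 fell, with a median of 0.08 (1 and 6 with median ratio scaling), beside 31.8% and 14.8% of all tested genes. DPP4 (CD26), which anchors adenosine deaminase on the cell surface, fell from 63.5 to 27.8 TPM, by 1.13 (adjusted p = 0.000327). The nucleoside carrier SLC28A3 fell by 0.99 (adjusted p = 0.000140) and the ADP receptor P2RY1 by 0.79 (adjusted p = 0.000292), both at levels under 3 TPM. The lysosomal nucleoside carrier SLC29A3 rose by 1.29 (adjusted p = 0.00167), from 0.404 to 2.63 TPM. AHCY, which releases adenosine inside the cell, was called higher at 0.48 (adjusted p = 0.0420), which was lost with median ratio scaling (0.26, adjusted p = 0.394) and without 7 of the 12 libraries in turn, vector replicate 1 among them (0.26, adjusted p = 0.134). P2RX4 had -0.04 (adjusted p = 0.871). In HIF1α-ko, DPP4 was also called lower (-0.58, adjusted p = 0.0350), a call lost without 5 of the 12 libraries in turn.

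Of 18 other galectins and the enzymes that build their glycans 11 were tested, with 3 higher and 2 lower in HIF1α/2α-ko (median -0.22; 3 and 3 with median ratio scaling), again near the shares of all tested genes. MGAT1, which starts the branching of N-glycans, rose in all 3 knockout groups, from 23.5 ± 7.17 TPM to 67.8 ± 4.77, 43.9 ± 2.76 and 67.0 ± 7.25 (SD, n = 3). Its changes were 1.53 (adjusted p = 0.000291), 0.91 (adjusted p = 0.00854) and 1.51 (adjusted p = 4.19e-05), kept without each library in turn. B4GALT1, which adds the galactose that galectins bind, fell by 0.65 in HIF1α/2α-ko (adjusted p = 0.00111), and LGALS3BP, a secreted galectin-3 ligand, fell by 0.56 (adjusted p = 0.00423) from 709 to 484 TPM. LGALSL, the galectin-like gene, rose by 0.87 (adjusted p = 0.000626) at a level of 1.87 TPM. B4GALT1 was also called lower in HIF1α-ko (-0.48, adjusted p = 0.0155) and HIF2α-ko (-0.53, adjusted p = 0.0180). Each of these 2 calls was lost without 3 of the 12 libraries in turn.

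**Figure D4:**
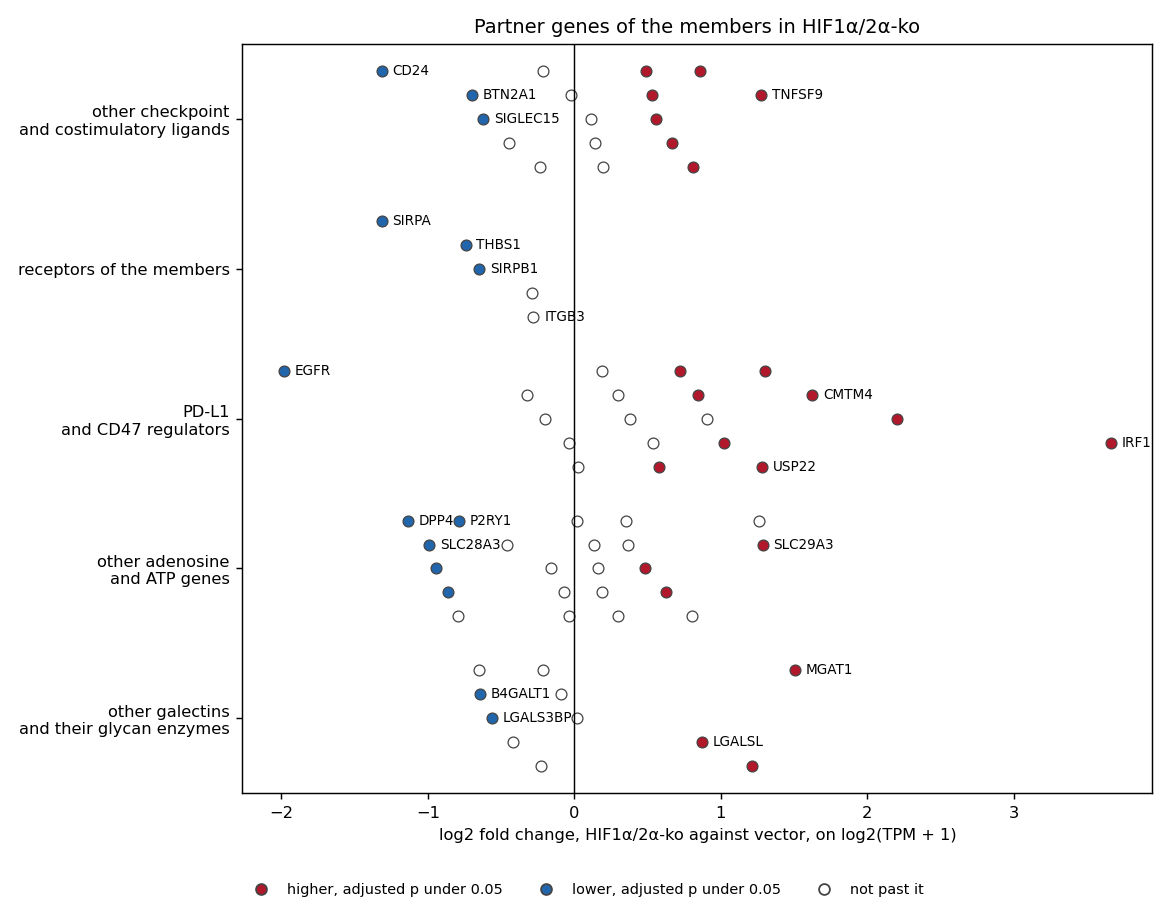
Log2 fold change in HIF1α/2α-ko against vector of the tested genes of the 5 lists around the members, on the log2(TPM + 1) scale; each point is 1 gene, red is higher and blue lower at an adjusted p under 0.05, and open points did not pass. IRF1 at 3.66 and EGFR at -1.98 lie at the ends. Of the receptors, binding partners and related genes 3 of 5 are blue, beside 14.8% of all tested genes called lower.

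Among the members themselves the levels moved together in part. Over the 12 libraries, on log2(TPM + 1), Pearson's r was 0.875 for PDCD1LG2 and NT5E, 0.786 for CD47 and NT5E, 0.735 for ADORA2B and LGALS1, -0.719 for CD274 and LGALS1 and 0.548 for CD274 and PDCD1LG2. These are descriptions over libraries that share 4 groups and the less alike replicate 1 libraries. For 7 of the 8 tested members the gene whose pattern was most like theirs is given: RNGTT for CD274 (r = 0.968), HOXD10 for PDCD1LG2 (0.959), POLE3 for CD276 (0.965), C17orf100 for CD47 (0.940), C1QTNF6 for NT5E (0.962), OSGIN1 for ADORA2B (0.974) and ARG2 for LGALS3 (0.950), again over 12 libraries.

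The nearest tested genes on the chromosomes gave a local reading. PLGRKT, 12625 bp from CD274, rose in HIF1α/2α-ko (1.51, adjusted p = 9.08e-05), where CD274 did not pass. IFT57 and BBX, on either side of CD47, rose in HIF1α/2α-ko by 1.31 (adjusted p = 0.00120) and 0.76 (adjusted p = 0.00925), while CD47 fell. DLGAP5, 2699 bp from LGALS3, fell in HIF1α-ko by 1.56 (adjusted p = 0.00388), where LGALS3 rose. NOL12, 1867 bp from LGALS1, rose in HIF1α/2α-ko by 1.42 (adjusted p = 0.000126), where LGALS1 fell. These calls were kept without each library in turn. TBX18 and SNX14 beside NT5E did not pass in any group against vector. PDXP beside LGALS1 was lower in HIF1α-ko (-1.06, adjusted p = 0.00914) and higher in HIF2α-ko (0.84, adjusted p = 0.0476) and HIF1α/2α-ko (0.75, adjusted p = 0.0239). MAPK1IP1L beside LGALS3 was lower in HIF1α-ko (-0.61, adjusted p = 0.0167) and HIF1α/2α-ko (-0.47, adjusted p = 0.0304). DLGAP5 was also lower in HIF1α/2α-ko (-1.44, adjusted p = 0.00216). PLGRKT and IFT57 were also called higher in HIF1α-ko, at 0.79 (adjusted p = 0.0145) and 0.74 (adjusted p = 0.0480). The calls of PLGRKT and IFT57 in HIF1α-ko were lost without 3 and 9 of the 12 libraries in turn. The changes called for CD47, LGALS1 and LGALS3 were in the opposite direction to those called for a direct neighbour in the same group. The changes called for ADORA2B and NT5E had no called neighbour. Of all tested genes, 31.8% were called higher in HIF1α/2α-ko and 8.77% lower in HIF1α-ko.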

How the data were processed

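Total RNA of U87 cells was extracted, and mRNA libraries were sequenced by the authors. They deposited a table of TPM values with 1 column for each of the 12 libraries, none pooled. The submitters' processing notes name FastQC 0.11.2, Trimmomatic 0.36, HISAT2 2.0 and bedtools 2.26.0 and GRCh38, without roles or an annotation. TPM corrects reads for gene length and sets all columns to nearly 1 sum (999955 to 999982 here), so depth and counting error are unknown, and a gene that takes a larger share lowers the others. The vector columns carry no knockout code and were taken as the hypoxic control libraries of the labels by the letter and number in their names. Hypoxia of 72 h is from the record of the sequencing; the methods give a shorter time for mRNA detection in general.

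Symbols came from the table of names for 20148 genes, from GENCODE 29 for 76, and 39 had none. TPM was transformed to log2(TPM + 1), which understates changes of low genes. Genes needed 1 TPM or more in 3 libraries or more, which 11731 had, and limma 3.58.1 (R 4.3.3) was applied to all 4 groups in 1 model, with empirical Bayes and a mean-variance trend. Every knockout was set against vector and HIF1α/2α-ko against both others, and with the interaction this made 6 contrasts, each two-sided with Benjamini-Hochberg adjustment over all tested genes and a threshold of 0.05. Every adjusted p in the text is from limma. Python 3.11.15 with numpy 2.4.6, pandas 2.3.3 and matplotlib 3.10.9 made the tables and figures. On simulated data for HIF1α/2α-ko against vector, 188 of 200 genes changed by a log2 of 2 among 11731 were called, with 9 unchanged genes called. All member changes in the main fit were smaller than that, and recovery of smaller changes was not simulated.

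The members and gene lists were chosen with earlier results of these data known. Genes are named by a rule: all members, from each list the 4 tested genes of lowest p when HIF1α/2α-ko was set against vector and the 2 most abundant, the genes most alike in pattern, and the nearest tested protein-coding genes. CD68, CD86 and PDCD1 were named after their values were seen. Alternatives were a pseudocount of 0.1, no filter, a mean TPM of at least 5, median ratio scaling, quantile normalization, only the groups compared, no trend, the replicate number as a block, each library left out, and replicate 1 of every group left out. Same-numbered libraries deviated together between knockout groups (r of 0.196 to 0.508) but not between vector and knockouts (-0.0265 to 0.163). The pairing was taken from these values, as the meaning of the numbers is given nowhere in the sources used here. Protein sequences were not used here, and the result of 1 gene that the rule names is not reported here.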

Additional observations from a re-analysis of the deposited data

Results flagged for a closer look

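The effect of losing HIF2α on LGALS1 differed between cells with and without HIF1α in the main fit, by the interaction term of -0.66 (SE 0.18, adjusted p = 0.0223, limma). The call was lost without 3 of the 12 libraries in turn, with median ratio scaling (adjusted p = 0.0781) and with no filter (adjusted p = 0.0735). LGALS1 was higher in HIF2α-ko than in vector in 3 of 3 libraries and on average lower with both factors lost than with HIF1α lost, at means of 6827 and 8073 TPM. Neither of these differences passed on its own (adjusted p = 0.0522 and 0.169). The cause was not tested.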

How the results depend on the processing

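Each tested member was read in each contrast under each alternative, and each such reading counts once. Under changes of pseudocount, filter, scaling, samples, trend or block, 342 readings kept direction and side of the threshold, with 14 calls lost, 26 gained and 4 directions reversed. With libraries left out, 515 were kept, 42 calls lost, 38 gained and 29 reversed. For the other named genes the numbers were 396, 25, 5 and 3, and 643, 61, 5 and 6. CD274 was not tested at a mean TPM of at least 5. The causes were not tested. The number of members called against vector in HIF1α-ko (2) was 1 with only the groups compared or no mean-variance trend and 6 without replicate 1 of every group. In HIF2α-ko (0) it was 1 with a pseudocount of 0.1, with a mean TPM of at least 5 and with quantile normalization, and 3 without replicate 1 of every group. In HIF1α/2α-ko (4, all lower) it was 1 with no filter, 2 with only the groups compared, 6 with quantile normalization (5 lower, 1 higher) and 4 without replicate 1 of every group (2 lower, 2 higher). Against HIF1α-ko (3) it was 5 with quantile normalization, 6 with the replicate block on the 3 knockout groups and 7 without replicate 1 of every group. Against HIF2α-ko (3) it was 5 with the replicate block on 4 groups, 6 with the block on 3 and 6 without replicate 1 of every group. The interaction (1) had 0 with no filter, 2 with either scaling, 2 with the block on 4 groups and 5 without replicate 1 of every group. Leaving out 1 library at a time gave 1 to 3, 0 to 1, 2 to 5, 1 to 4, 2 to 4 and 0 to 2 members in these 6 comparisons.

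Genes called overall were 3060 in HIF1α-ko and 6461 without replicate 1 of every group. In HIF2α-ko 1286 became 474 with only the groups compared, 2068 with the replicate block on 4 groups and 4283 without replicate 1 of every group. In HIF1α/2α-ko 5473 became 4384 with only the groups compared, 5677 with quantile normalization and 7550 without replicate 1 of every group. Against HIF1α-ko 3322 became 5684 with the block on 3 groups and 5276 without replicate 1 of every group, and for the interaction 2414 became 5040. Leaving out 1 library gave 1552 to 4194 in HIF1α-ko, 471 to 2497 in HIF2α-ko and 1542 to 3564 for the interaction. The block on 4 groups lost the call of NT5E in HIF1α/2α-ko (-0.95, adjusted p = 0.0678) and called LGALS3 there (adjusted p = 0.00142).

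Directions turned for values that did not pass the test. CD47 in HIF1α-ko (0.08) was -0.12 with median ratio scaling and -0.012 with quantile normalization, and LGALS3 in HIF2α-ko (-0.02) was 0.032 and 0.048. HLA-E in HIF1α/2α-ko (0.14) was -0.088 with median ratio scaling. RELA there (0.03) was -0.20 and -0.14 with the scalings. Without replicate 1 of every group, PDCD1LG2 was at 0.42 without HIF2α and at 0.26 without both factors, CD47 was 0.28 in HIF2α-ko, RELA was -0.28 and P2RX4 0.26 in HIF1α/2α-ko. With 1 library left out, CD274 ranged from -0.15 to 0.26 in HIF2α-ko, from -0.00016 to 0.60 against HIF1α-ko and from -0.035 to 0.59 in the interaction. PDCD1LG2 ranged from -0.018 to 0.61 in HIF1α-ko, from -0.40 to 0.24 in HIF2α-ko and from -0.49 to 0.027 against HIF2α-ko. CD276 ranged from -0.32 to 0.028 in HIF2α-ko, from -0.38 to 0.030 against HIF1α-ko and from -0.28 to 0.13 in the interaction. CD47 ranged from -0.074 to 0.23 in HIF1α-ko and from -0.41 to 0.18 in HIF2α-ko. NT5E ranged from -0.034 to 0.87 in HIF1α-ko and from -0.23 to 0.67 in HIF2α-ko, LGALS3 from -0.16 to 0.11 in HIF2α-ko, RELA from -0.26 to 0.19 and P2RX4 from -0.17 to 0.15 in HIF1α/2α-ko.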
